A study of Homo sapiens with 4 samples.

Results

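The H3K79me2 library of MCF10A gave 109105 peaks on chromosomes 1 to 22, of 112870 peaks in the whole H3K79me2 list and 574098 peaks in the 3 lists of the study. All peaks on these chromosomes were taken, with no selection on the caller's enrichment or probability. MCF10A is an immortalised, non-malignant human mammary epithelial line, here untreated apart from its culture in MEGM, a mammary epithelial medium, with cholera toxin at 100 ng/ml. The study mapped histone H3 dimethylated at lysine 79 (H3K79me2), trimethylated at lysine 4 (H3K4me3) and trimethylated at lysine 27 (H3K27me3) by chromatin immunoprecipitation and sequencing, with 1 library for each mark and 1 of input DNA, whose signal is not analysed here. The line is a single immortalised culture, no library has a replicate, and the read depth behind the peaks is unknown, so every value below describes this library and carries no error estimate and no test.

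H3K79me2 is written by DOT1L, the only known methyltransferase for this lysine, which sits on the face of the nucleosome rather than on its tail. DOT1L is non-processive, is stimulated by ubiquitin on histone H2B, and travels with the elongation complexes that contain the AF9, ENL and AF10 proteins. The mark is therefore known from the 5′ part of transcribed genes, just downstream of the promoter mark H3K4me3, and is largely missing from silent genes.

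Genes were taken as RefSeq records on GRCh38, the span from the first to the last annotated base of a gene, and a record was called covered to the extent that its bases lay in a peak. Promoters of 4 records show what the covered and the uncovered look like in sequence. Each line holds the 250 bases before the start of the record, 5′ to 3′ on the gene's strand, from RefSeq (build GRCh38.p14), and capitals mark CG dinucleotides. DNAJB9 (chr7:108569624-108569873, plus strand) and TGOLN2 (chr2:85327990-85328239, minus strand) are protein-coding records covered from end to end, LINC00673 (chr17:72592805-72593054, minus strand) lies under the widest peak outside protein-coding genes, and DCC (chr18:52339947-52340196, plus strand) is a record over 1 Mb long without a peak base.

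DNAJB9: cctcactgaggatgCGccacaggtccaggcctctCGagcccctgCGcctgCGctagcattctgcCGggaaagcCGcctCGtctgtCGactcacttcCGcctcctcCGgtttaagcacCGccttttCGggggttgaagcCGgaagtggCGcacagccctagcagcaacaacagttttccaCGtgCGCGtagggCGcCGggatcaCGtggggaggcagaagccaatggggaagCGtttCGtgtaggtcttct

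TGOLN2: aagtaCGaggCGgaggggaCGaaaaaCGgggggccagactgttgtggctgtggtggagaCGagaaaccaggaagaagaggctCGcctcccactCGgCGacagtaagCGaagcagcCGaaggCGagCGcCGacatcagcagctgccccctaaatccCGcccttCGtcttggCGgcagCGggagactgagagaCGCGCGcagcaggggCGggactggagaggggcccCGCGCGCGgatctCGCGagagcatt

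LINC00673: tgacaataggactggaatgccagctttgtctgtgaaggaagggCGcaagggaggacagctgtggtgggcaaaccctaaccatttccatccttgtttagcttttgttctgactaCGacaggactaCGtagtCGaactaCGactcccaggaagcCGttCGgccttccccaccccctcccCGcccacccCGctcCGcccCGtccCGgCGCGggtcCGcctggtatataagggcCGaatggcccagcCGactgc

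DCC: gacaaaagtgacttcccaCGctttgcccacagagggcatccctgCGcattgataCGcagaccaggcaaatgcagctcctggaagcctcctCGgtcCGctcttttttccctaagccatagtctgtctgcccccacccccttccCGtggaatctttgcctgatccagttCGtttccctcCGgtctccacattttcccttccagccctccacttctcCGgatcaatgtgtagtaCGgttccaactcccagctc

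The DNAJB9 stretch held 22 CG dinucleotides, that of TGOLN2 27, that of LINC00673 17 and that of DCC 10. All 250 bases lay in an H3K79me2 peak and in an H3K4me3 peak in the first 3. In DCC, the receptor for netrin on growing axons, 221 of the 250 bases lay in an H3K4me3 peak and none in an H3K79me2 peak. The contrast in CG content held over the set of promoters. Among 13150 protein-coding records whose RefSeq promoter sits at the record start, the median was 22 CG dinucleotides per 250 bases where the first 1000 bp of the record held an H3K79me2 base (7286 records) and 7 where they did not (5864 records). In records under 5 kb the medians were 20 and 4, and in records of 500 kb or longer 23 and 17.5.

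Short promoter motifs were searched on both strands of the same 250 bases, and matches of different motifs were allowed to overlap. GGGCGG, the core of a GC box, was found in 56.3% of all 13150 promoters, in 70.4% of those before a marked start and in 38.8% of those before an unmarked one. CCGGAAG, an ETS-type motif, was found in 12.2% of all, with 19.4% before marked and 3.29% before unmarked starts. TATAAA went the other way, with 9.70% of all, 4.95% before marked and 15.6% before unmarked starts. These motifs differ in base composition as the promoters do, and a match is a string of letters, not a bound site. Of the promoters printed above, TGOLN2 and LINC00673 held GGGCGG, DNAJB9 held CCGGAAG, and none of the 4 held TATAAA.

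The peaks were mostly short, while most covered bases lay in few long ones. The 109105 peaks covered 306 Mb, with a median width of 669 bp (quartiles 322 and 1759 bp) and a range from 150 to 330876 bp. Peaks under 1000 bp made up 62.7% of the list and held 9.83% of the covered bases. The 6653 peaks of 10 kb or longer were 6.10% of the list and held 57.1% of the bases, and the 682 peaks of 50 kb or longer were 0.625% of the list and held 16.8%. The 4796 widest peaks, 4.40% of all, together held 50% of the covered bases. At the lower end, 9955 peaks had exactly the narrowest width of 150 bp.

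**Figure D1:**
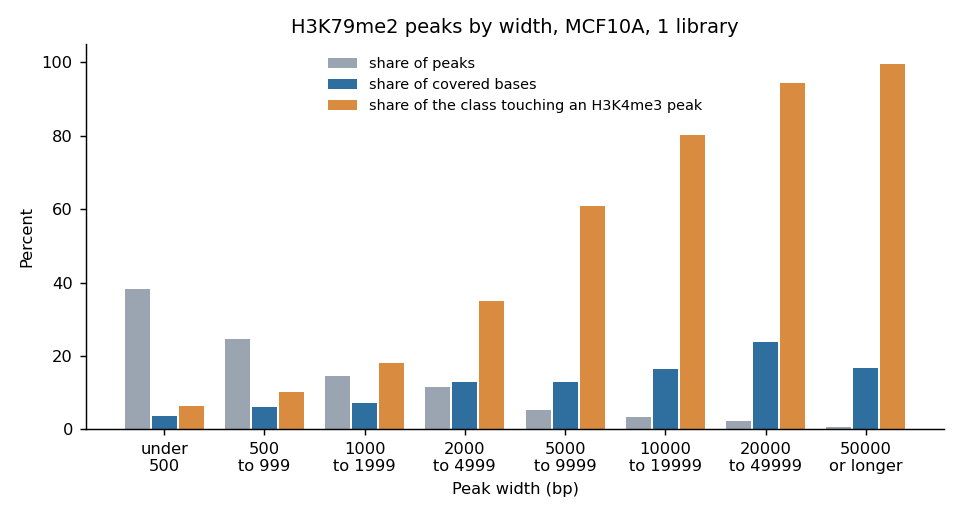
Peaks of the H3K79me2 library by width in bp (horizontal axis), with the percent of all peaks and the percent of all covered bases in each class, and the percent of the class that shares a base with an H3K4me3 peak. The class under 500 bp has 38.1% of the peaks and 3.71% of the bases, the class from 20 to 50 kb has 2.18% of the peaks and 23.8% of the bases, and contact with H3K4me3 rises from 6.42% to 99.4% across the classes.

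Width went together with contact to H3K4me3. Over the whole list 21806 peaks (20%) shared at least 1 base with an H3K4me3 peak. This share was 6.42% in peaks under 500 bp, 34.8% from 2 to 5 kb, 80.1% from 10 to 20 kb and 99.4% in peaks of 50 kb or longer. Contact with H3K27me3 peaks rose with width as well, from 2.14% under 500 bp to 67.9% at 50 kb or longer. A wider peak has more room to touch another, so the share of bases is the measure that does not grow with width alone. By that measure H3K4me3 held 5.31% of the bases in the narrowest class, rose to 21.4% in peaks from 5 to 10 kb and was 12.7% in peaks of 50 kb or longer. H3K27me3 held between 0.307% and 0.973% of the bases in every width class.

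The other lists had other widths. H3K4me3 had 65793 peaks on the same chromosomes with a median of 851 bp, a widest peak of 41775 bp and 3.25% of its bases in peaks of 10 kb or longer. The H3K27me3 list is of narrow peaks, with 353923 entries, a median of 214 bp and none of 10 kb. The list formats differ, so these widths are not compared further.

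The caller's values rose with width from 500 bp upward. The authors' median fold enrichment per peak was 2.08 under 500 bp, 2.05 from 500 to 1000 bp, 2.27 from 2 to 5 kb, 3.07 from 10 to 20 kb and 3.99 at 50 kb or longer. Of all peaks, 15585 (14.3%) had a caller's q of 0.05 or below, and these held 63.8% of the covered bases. Their median width was 6324 bp against 599 bp for the others.

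Neighbouring peaks were never closer than 601 bp, and the median gap was 2213 bp. Gaps of up to 1000 bp made up 27.2% of the gaps, and joining peaks across them gave 79402 blocks, of which the longest was 401070 bp. The joined blocks included 1102 of 50 kb or longer, where single peaks numbered 682.

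Of the 10 widest peaks, 9 lay over protein-coding genes. The widest, chr10:63269712-63600587, was 330876 bp and ran from JMJD1C, a relative of the lysine demethylases, into REEP3, which encodes a protein that shapes the endoplasmic reticulum. It covered 71.1% of the JMJD1C record and 76.3% of the REEP3 record. The next, chr6:156775271-157021179, took 245909 bp and covered 56.4% of ARID1B, a subunit of the BAF chromatin remodelling complex. A peak of 203130 bp covered 87.5% of CDK6, a kinase of the G1 phase. One of 199104 bp lay wholly in MED13L, of the Mediator kinase module, and took 62.4% of it. A peak of 192235 bp had the highest fold of the 10 at 6.36 and covered 84.4% of ANKRD11, a chromatin regulator, and all of LOC128462377, a record that overlaps it. The ephrin gene EFNA5 (183856 bp), the oxysterol-binding protein gene OSBPL10 (182634 bp) and MLLT10 (181151 bp) also had peaks among the 10, as did ASAP1 (229902 bp), a regulator of Arf GTPases. MLLT10 encodes AF10, a partner of DOT1L itself, and its peak covered 85.9% of the record. The seventh peak, of 185664 bp, touched no protein-coding record and is described with LINC00673 below.

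Most peak bases (91.9%) lay inside protein-coding records, and cover of those records was uneven. Of the 2874 Mb that the chromosomes span here, 1665 Mb lay outside protein-coding records. Of 18973 protein-coding records, 5351 (28.2%) had at least 50% of their bases in a peak, 5669 (29.9%) had no peak base, and 419 were covered from end to end. With peaks of a caller's q of 0.05 or below only, 9218 records had no peak base. The median record had 13.7% of its bases covered and the upper quartile was 56.0%.

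Cover changed with the length of the record in 2 ways. The share of records with no peak base fell from 64.9% under 5 kb, over 21.6% from 20 to 50 kb, to 3.30% at 500 kb or longer. A longer record has more room for at least 1 peak, and in 60.4% of the records of 500 kb or longer peaks covered more than 0 but less than 1% of the bases. The share of records covered over at least 50% was 25.9% under 5 kb and between 28.4% and 31.5% in the 5 classes from 5 to 200 kb. It was 16.7% from 200 to 500 kb and 2.31% at 500 kb or longer. The pooled share of bases was highest from 20 to 50 kb at 33.5% and lowest at 500 kb or longer at 5.88%.

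**Figure D2:**
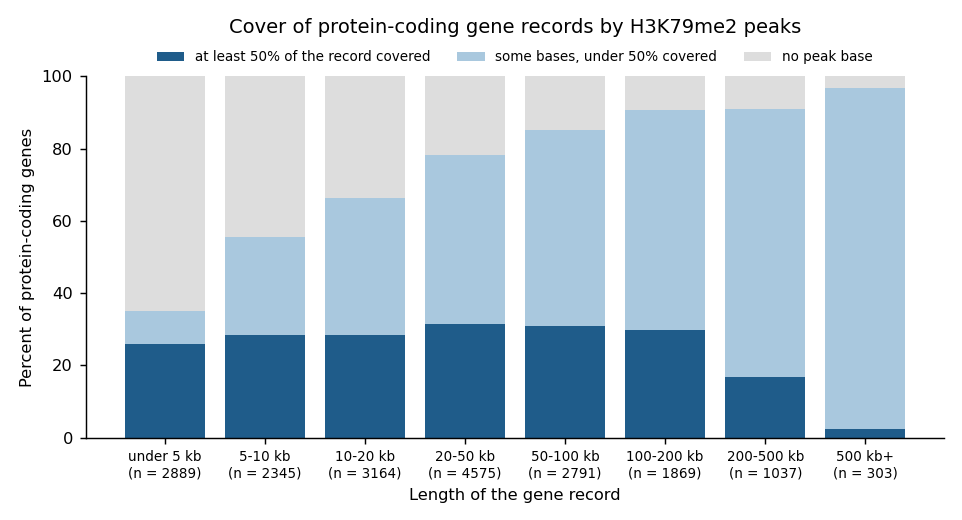
Protein-coding gene records by length class (horizontal axis, with the number of records) and the percent of records with at least 50% of bases in H3K79me2 peaks, with some bases but under 50%, and with none. The dark part stays between 25.9% and 31.5% up to 200 kb and is 2.31% at 500 kb or longer, while the grey part shrinks from 64.9% to 3.30%.

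Short records ranged from bare to fully covered. In the class under 5 kb the median share was 0%, the upper quartile 54.1% and the 90th percentile 97.0%, and 227 of 2889 records were fully covered. The longest fully covered record of that class was DNAJB9 (4977 bp), a co-chaperone of the endoplasmic reticulum. Next by length came BCL2L2, an anti-apoptotic protein of the BCL2 family, with 4919 bp, and TOR4A, of the torsin family, with 4916 bp. Fully covered records overlapped another protein-coding record more often than others did. Of all records 76.6% overlapped no other, against 61.8% of the fully covered ones and 84.4% of those with no peak base, and cover was not divided between overlapping records.

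The middle classes held fully covered records of up to 77062 bp. From 5 to 10 kb they were led by TGOLN2 (9963 bp), a protein of the trans-Golgi network, the ribosomal protein gene RPL5 (9939 bp) and SSRP1 (9905 bp), a subunit of the FACT histone chaperone. TOMM20, a receptor of mitochondrial protein import, MZT1, of the gamma-tubulin ring complex, and ERH led from 10 to 20 kb with 19497, 19263 and 18172 bp. SNX3, a sorting nexin, was covered over all of its 49819 bp, the Golgi protein gene GOLPH3 over 49604 bp and the small GTPase gene CDC42 over 48652 bp. From 50 to 100 kb the clathrin heavy chain gene CLTC was covered over its whole 77062 bp, the RNA helicase gene DHX15 over 57080 bp and YWHAE, a 14-3-3 protein, over 55948 bp. FOXO1, a forkhead transcription factor, was the longest record covered from end to end, with 110975 bp in a single peak.

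Above 200 kb no record was fully covered. TMCC1 (245920 bp) had 97.4% of its bases in 6 peaks, EFNA5 (294044 bp) 97.1% in 9 and PID1 (247315 bp) 96.1% in 12. At 500 kb or longer the largest shares were 67.2% in the receptor phosphatase gene PTPRG, 65.9% in FOXP1 and 63.9% in the adenosine kinase gene ADK, made up of 84, 120 and 110 peaks. By bases, the phosphodiesterase gene PDE4D had the most of any record, 554853 bp in 200 peaks, which is 35.7% of its 1553091 bp. It was followed by PTPRG (494650 bp), LPP (455639 bp), a focal adhesion protein, PTPRM (453196 bp) and the gephyrin gene GPHN (443553 bp). PDE4D also had 13.3% of its record in H3K27me3 peaks, against between 0.194% and 0.552% in the other 4.

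Some of the longest records held no H3K79me2 base. CSMD1, of 2059554 bp, was the longest of them, and 12.6% of it lay in H3K27me3 peaks. DCC (1195703 bp) had 1.32% in H3K27me3 peaks, the synaptic gene UNC13C (795839 bp) 14.8%, the calsyntenin gene CLSTN2 (642213 bp) 3.56% and SORCS2 (550290 bp) 3.97%.

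Some gene families recognised by their symbols lay far apart. Of 76 RPL and RPS records, the proteins of the cytosolic ribosome, 64 (84.2%) were covered over at least 50%, with a median share of 86.9%, beside 28.2% over all protein-coding records. None of the 94 keratin-associated protein records (KRTAP) had a peak base, and 377 of 388 olfactory receptor records and 37 of 39 beta-defensin records had none. Over all records 29.9% had none, and among all records under 5 kb 64.9%. The median lengths of these families were 5046, 828.5, 3035.5 and 4511 bp, so the ribosomal protein and beta-defensin records were of similar length and at opposite ends. Zinc finger records (ZNF and a number) were close to the background, with 151 of 505 (29.9%) covered over at least 50%, though 13.5% had no peak base. Of 78 clustered histone records, which are short, 52 (66.7%) had no peak base and 15 (19.2%) were covered over at least 50%. These shares lie near the 64.9% and 25.9% of all records under 5 kb.

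The mark lay toward the start of genes. Of the 18973 records, 15101 have a strand in the reference used here, and chromosome 8 has none of them. More covered bases lay in the start side of the record, split at its midpoint, in 8641 records and in the end side in 2083, and 4377 had as many on both sides, mostly 0. Of all covered bases in these records 66.7% lay on the start side. From 5 kb upward this share was between 65.3% and 67.5% in every length class, and it was 54.2% in records under 5 kb. The 2083 records with more on the end side had a median of 2320 covered bp, against 10406 bp in the 8641, and 32.4% of them overlapped another protein-coding record, against 25.9%.

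**Figure D3:**
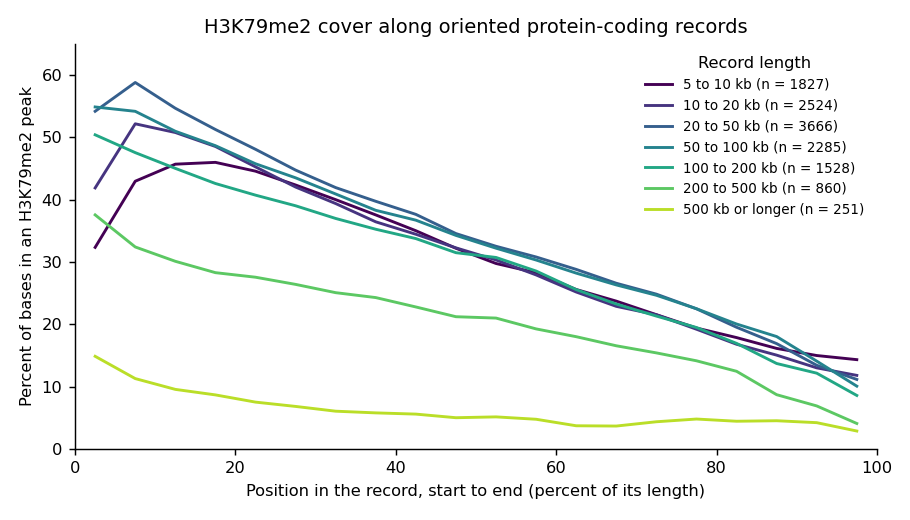
Percent of bases in an H3K79me2 peak (vertical axis) along oriented protein-coding records, in 20 equal steps from start to end (horizontal axis, percent of the record length), pooled over the records of each length class. From 10 to 200 kb the lines lie close together, falling from a highest value between 50.4% and 58.8% near the start to between 8.56% and 11.8% in the last step, while the line for 500 kb or longer begins at 14.8%.

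Scaled to the length of the record, the decline was alike across classes that differ widely in length. In records from 20 to 50 kb, cover was 58.8% in the second of 20 equal steps, 34.6% in the tenth and 11.1% in the last. In records from 100 to 200 kb it was 50.4% in the first step, 31.5% in the tenth and 8.56% in the last. Records from 200 to 500 kb ran lower, with 37.6%, 21.2% and 4.06% in the same steps. These are averages over marked and unmarked genes, and a single gene need not decline in this way.

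In kb from the start, cover by H3K79me2 was highest a short way inside the record, though part of it lay before the start. In 2285 oriented records from 50 to 100 kb, H3K79me2 peaks held 26.0% of the bases in the last kb before the start, 46.0% in the first kb of the record and 59.3% in the second. H3K4me3 peaks held 61.4%, 72.9% and 60.2% in the same bins. Further in, H3K79me2 held 49.0% from 10 to 11 kb and 24.4% from 49 to 50 kb, where H3K4me3 held 5.90% and 2.77%. The highest H3K79me2 bin of this class was thus 1 kb downstream of the highest H3K4me3 bin. From 100 to 200 kb and from 200 to 500 kb H3K79me2 was highest from 2 to 3 kb, at 54.8% and 44.1%. It held nearly as much in the second kb, 54.2% and 44.0%, and H3K4me3 was again highest in the first. In records from 100 to 200 kb H3K79me2 still held 35.7% from 49 to 50 kb, and at 500 kb or longer 24.1% in the second kb and 13.6% from 49 to 50 kb. Records of 500 kb or longer had H3K27me3 over 17.4% of the second kb, against 3.91% in those from 50 to 100 kb.

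**Figure D4:**
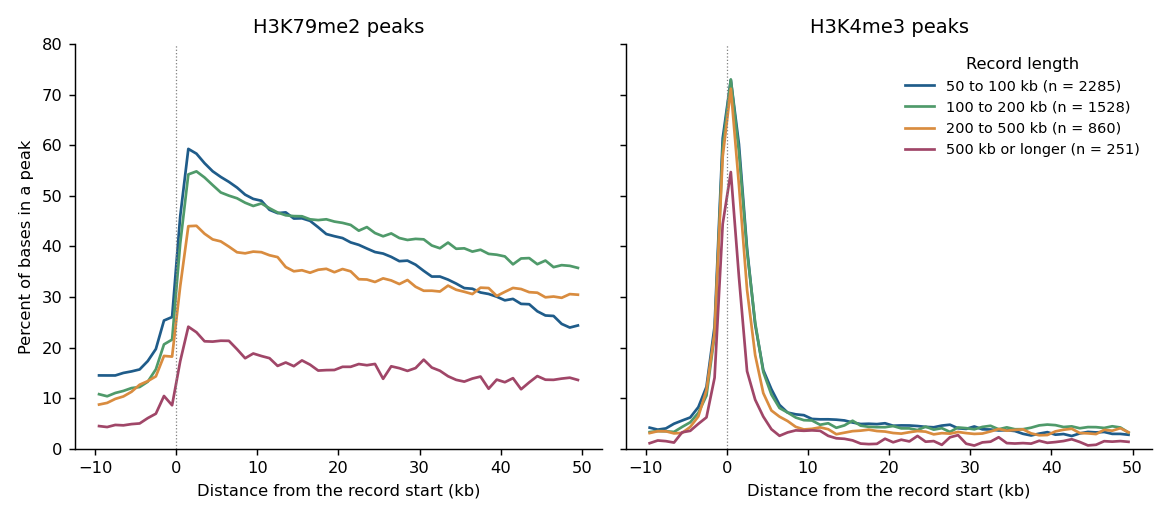
Percent of bases in an H3K79me2 peak (left) and in an H3K4me3 peak (right) by distance from the start of oriented protein-coding records in kb, in bins of 1 kb, for 4 length classes. In the class from 50 to 100 kb H3K79me2 is highest in the second kb at 59.3% and is 24.4% at 49 to 50 kb, while H3K4me3 is highest in the first kb at 72.9% and is under 6% from 10 kb on.

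A peak touched the first 1000 bp in 8027 of the 15101 oriented records (53.2%). The share was 34.0% under 5 kb, 62.5% from 20 to 50 kb and 27.9% at 500 kb or longer. Where it did, the peak at the start began a median of 75 bp inside the record, and in 41.1% of these records it began upstream. The distance from the start to the far end of that peak was a median of 6807 bp over all classes. It was 2945 bp in records under 5 kb, 9057 bp from 20 to 50 kb and 18104 bp from 100 to 200 kb, and then 13116 bp from 200 to 500 kb and 5754 bp at 500 kb or longer. As a share of the record it fell from 100% under 5 kb to 28.5% from 20 to 50 kb and 13.6% from 100 to 200 kb. In records under 5 kb 51.0% of these peaks ran past the far end of the gene, against 3.58% from 20 to 50 kb. CLTC was such a case in a longer record, since its peak began 1 bp before the record and ended 113248 bp after its start, beyond the end of the gene.

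Reach of a single peak and cover of the whole record are not the same quantity. In PTPRG the peak at the start reached 13258 bp into a record with 494650 covered bp, and in FOXP1 45374 bp into one with 414575 covered bp. The rest lay in further peaks along these records.

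Some records were covered in the interior and bare at the annotated start. Of 7074 oriented records with no peak base in the first 1000 bp, 3603 were 20 kb or longer, and 462 of these (12.8%) had at least 20% of their bases covered. In 421 of them a peak of 5000 bp or more lay in the record, the nearest to the start beginning at a median of 9420 bp from it, and in 31 it began over 100 kb from the start. H3K4me3 was found within 1000 bp before to 5000 bp after the start-ward edge of that peak in 402 of the 421 records (95.5%), and in the mirrored stretch at its far edge in 192 (45.6%). The start-ward edge had more H3K4me3 bases than the far edge in 389 records and fewer in 19. In some records the peak began close to the start, as in AFF1 (1303 bp), SGMS1 (1273 bp) and ROCK2 (1074 bp). There the start-ward stretch takes in part of the first 1000 bp, which H3K4me3 covered fully in these records. In short peaks, such as that of CD109 (7196 bp, with 6000 bp of H3K4me3 at each edge), the stretches at both edges overlap. The 402 records are thus not a count of internal starts. The first 1000 bp of the record held an H3K4me3 base in 250 of the 421 (59.4%).

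TP63, a master transcription factor of basal epithelium with a well-known internal promoter, was such a record. Its first wide H3K79me2 peak, chr3:189788856-189807091, began 192110 bp from the record start, after 63.9% of the record. From there to the end of the record 61.1% of the bases were covered, and H3K4me3 took 4666 bp at the start-ward edge of the peak, none at the far edge and none of the first 1000 bp of the record. GATA3, a luminal transcription factor, had its first wide peak 9420 bp from the record start and 74.8% cover after it. In PDE4D the first wide peak began 742506 bp from the start and cover after it was 66.9%, with 35.7% over the whole record. Cover after a first wide peak is counted from the edge of that peak, and the stretch left out holds no wide peak. By this definition it tends to exceed the share of the whole record, in PDE4D and in the other records named here. OSBPL10 had 94.8% cover after a peak that began 92267 bp in, and ZFHX3 had 80.7% after one that began 829911 bp in. OSBPL10 and ZFHX3 had no H3K4me3 base in the first 1000 bp and 3741 and 4355 bp of it at the start-ward edge of the peak, against 3730 and 2088 bp at the far edge. PDE4D had none in the first 1000 bp or at the start-ward edge and 5975 bp at the far edge, so it is among the 19 records that go the other way.

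Along the chromosomes, cover was gathered in few windows. Of 2864 windows of 1 Mb the median had 77.3 kb covered, with quartiles of 3.44 and 179 kb. There were 328 windows (11.5%) with at least 250 kb covered, and they held 34.5% of the covered bases. No peak base was found in 159 windows (5.55%), of which 102 held no peak of any of the 3 marks and 143 no midpoint of a protein-coding gene. With peaks of a q of 0.05 or below only, 78 windows had at least 250 kb and 677 had none.

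**Figure D5:**
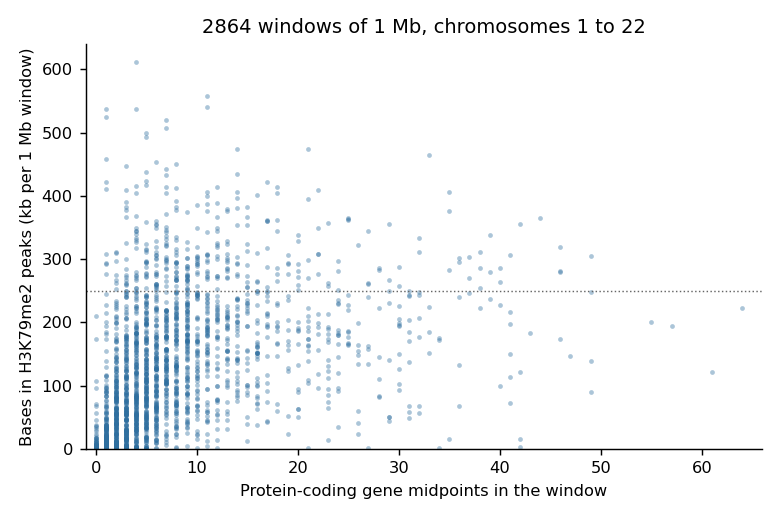
Bases in H3K79me2 peaks in kb per 1 Mb window (vertical axis) against the number of protein-coding gene midpoints in the window (horizontal axis), with 1 point for each of 2864 windows and a dotted line at 250 kb. The 8 highest windows, up to 612 kb, have 11 or fewer midpoints, and windows with over 20 midpoints reach 474 kb.

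Gene number went along with cover up to a point. The median was 0.712 kb in 480 windows without a gene midpoint, 10.8 kb in 608 windows with 1 or 2, 138 kb in 736 windows with 5 to 9, 191 kb in 407 windows with 10 to 19 and 190 kb in 210 windows with 20 or more. Spearman's rank correlation over the 2864 windows was 0.748 with gene midpoints and 0.877 with bases in H3K4me3 peaks, against 0.102 with bases in H3K27me3 peaks. Neighbouring windows share genes, and all lists share the mappable part of the genome, so these coefficients are descriptions.

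The window with the most cover, chr10:74000001-75000000, had 612 kb in peaks and 4 gene midpoints. It holds ADK with 357 kb of the cover, the histone acetyltransferase gene KAT6B with 136 kb, the vinculin gene VCL with 101 kb and AP3M1 with 17.0 kb. The second, chr3:47000001-48000000, had 558 kb over 11 midpoints, led by SMARCC1, a BAF subunit, with 158 kb and by SETD2, the methyltransferase of lysine 36 of histone H3, with 127 kb. On chr22:40000001-41000000 the total was 541 kb, with 201 kb in MRTFA, a coactivator of serum response factor, and 170 kb in TNRC6B, of the microRNA silencing machinery. On chr2:229000001-230000000 it was 538 kb, with 238 kb in PID1 and 158 kb in DNER. The fifth and sixth windows, chr5:59000001-60000000 (537 kb) and chr3:61000001-62000000 (525 kb), each had 1 gene midpoint. All cover of the fifth lay in PDE4D, and that of the sixth lay mostly in PTPRG (421 kb), with 102.5 kb in FHIT. Both also had more H3K27me3 than the other 6, with 87.9 and 35.0 kb against at most 6.94 kb. The last 2 of the 8, on chromosomes 9 and 3, had 519 and 508 kb with MAPKAP1, PBX3 and the cohesin gene STAG1 among their genes.

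The gene-rich windows with the least cover included clusters of single gene families. On chr11:55000001-56000000 only 0.465 kb was covered and all 21 records were without a peak base, 19 of them olfactory receptors. The next window on that chromosome had 1.18 kb and 27 records, all olfactory receptors without a peak base. On chr21:30000001-31000000, 32 of 34 records were keratin-associated proteins and none of the 34 had a peak base, with 61.8 kb of the window in H3K27me3 peaks. On chr7:142000001-143000000 9 of 10 records had no peak base, with 96.7 kb in H3K27me3 peaks, and MGAM, an intestinal digestive enzyme, had 0.450 kb. The window chr7:63000001-64000000 had 1.87 kb covered, and its 13 records, 12 of them with LOC symbols, had no peak base.

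By chromosome, the median window was highest on chromosome 17 at 166 kb and lowest on chromosome 13 at 17.0 kb. Chromosome 17 had 13.9 gene midpoints per window and chromosome 13 had 2.90. Chromosome 19, with the most midpoints per window (23.9), had a median of 149 kb and 21.8% of its genes covered over at least 50%, the lowest share of the 22, with chromosome 21 next at 21.8%. Chromosome 13 had the highest at 33.3%. The pooled share of protein-coding bases that were covered lay between 20.6% and 28.6% on all 22, so chromosomes differed less in cover per gene base than in cover per window. The longest run of neighbouring windows with under 10 kb each, chr13:61000001-72000000, was 11 windows long and had 16.4 kb covered in all and 6 gene midpoints.

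Outside protein-coding genes peaks were fewer and shorter. There, 22628 peaks (20.7%) shared no base with a protein-coding record, and they held 19.1 Mb, or 6.24% of the covered bases. Their median width was 410 bp against 784 bp for the other peaks, 0.787% were 10 kb or longer against 7.49%, and 7.84% had a q of 0.05 or below against 16.0%. The authors' median fold was 2.08 against 2.15. Of peaks with a q of 0.05 or below, 1774 lay outside protein-coding records.

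Part of these peaks lay beside genes. Of the outside peaks 8.93% (2021) lay under 1 kb from the nearest protein-coding record, 15.6% from 1 to 5 kb and 22.4% farther than 100 kb. Under 1 kb, 1077 faced the start of the gene and 588 its end, and the rest had no strand. H3K4me3 was shared by 87.8% of those facing a start and by 15.3% of those facing an end, and their median widths were 698 and 508 bp. From 5 to 10 kb the shares were 12.2% and 11.8%.

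Other peaks lay over non-coding genes. Of the 22628, 8123 overlapped another gene record, 6424 of them a long non-coding RNA (lncRNA) and 1317 a transcribed pseudogene. The share of the sequence outside protein-coding records that such records take up is not given here, so these counts have no background. The 8123 held 11.2 Mb and the 14505 over no gene record 7.86 Mb. Of the 178 outside peaks of 10 kb or longer, 165 lay over another gene record and 13 over none. Among 11062 lncRNA records clear of protein-coding genes, 2586 (23.4%) had a peak base and 353 (3.19%) were covered over at least 50%, beside 28.2% of protein-coding records. The share of such lncRNA records covered over at least 50% was 6.50% under 5 kb and 0.760% from 50 to 100 kb.

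The widest outside peaks named a small set of long non-coding genes. The first, chr17:72407988-72593651, was 185664 bp wide with 26666 bp of H3K4me3 and covered 97.5% of LINC00673, whose promoter is printed above. With a second peak 99.7% of that record was covered. The second widest, chr2:87455533-87563966, was 108434 bp wide and covered 99.8% of CYTOR and 38.4% of NCAL1, which overlap. PVT1 had 3 of the 10, of 94216, 71002 and 61255 bp, and 95.9% of its 306733 bp were covered by 8 peaks. The authors' folds of the 3 were 6.43, 3.28 and 7.00, beside a median of 3.99 in all peaks of 50 kb or longer. Copy number was not examined, here or elsewhere along the chromosomes. A peak of 70585 bp lay in MIR4435-2HG, whose record was 54.2% covered. MIR29B2CHG was covered over 77.7% by a peak of 63691 bp that ran on past the record. The pseudogenes SUZ12P1, under a peak of 63539 bp, and SLC71A3P, under one of 58458 bp, closed the 10. Both are copies of other genes, so reads may have been placed between copies. Whether the other records under the 10 peaks have copies elsewhere was not looked at, so the same limit may apply to them.

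Some of these peaks lie over genes of microRNAs, small RNAs that silence messenger RNAs through the seed at bases 2 to 8. The fourth widest peak, chr1:198855520-198939416, covered 63.3% of MIR181A1HG and the whole hairpins of MIR181A1 and MIR181B1. A peak of 6264 bp covered all of MIR205HG (3730 bp) and the hairpin of MIR205, a microRNA known from basal epithelium. Their mature 5p sequences (RefSeq, GRCh38.p14) are shown with the seed in capitals, because the peaks lie over their genes.

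hsa-miR-181a-5p: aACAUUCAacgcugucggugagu

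hsa-miR-181b-5p: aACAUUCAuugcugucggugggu

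hsa-miR-205-5p: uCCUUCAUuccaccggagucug

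The seed is ACAUUCA in both miR-181 sequences and CCUUCAU in miR-205. Of 639 microRNA records clear of protein-coding genes 84 had a peak base. Of the 639, 83 (13.0%) were covered over at least 50%. Among other records clear of protein-coding genes this share was 13.1% for snoRNAs and 7.21% for transcribed pseudogenes. It was 3.19% for lncRNAs, 1.77% for pseudogenes and 1.05% for tRNAs. The 10.6% of all 37107 records that are not protein-coding is no like background, since these also include records inside protein-coding genes. The hairpins named above are 110 bp long and no peak is narrower than 150 bp. A record of that size, once touched, is therefore mostly covered as a rule.

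Other long records were covered in part. By bases in outside peaks PVT1 and LINC00673 were followed by MIR100HG with 185116 bp in 70 peaks (46.9% of the record), MIR924HG with 163013 bp in 131 peaks (29.9%), MIR4435-2HG with 162286 bp, LINC-PINT with 158755 bp, NCAL1 with 154843 bp, ZFPM2-AS1 with 120487 bp, DLEU2 with 98668 bp and MIR181A1HG with 94264 bp. LINC-PINT had 65403 bp of H3K4me3, the most of the 10.

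A list of 28 well-known non-coding RNA genes, taken wherever they lie, had 19 covered over at least 50%, beside 10.6% of the 37107 records that are not protein-coding. NEAT1, the scaffold of paraspeckles, was covered over 96.7% of 22743 bp, and MALAT1, a nuclear speckle RNA, over all of its 8779 bp. The snoRNA host genes SNHG1 and SNHG15 and the small host gene ZFAS1 were covered over 100%, and GAS5 over 75.5%. The largest numbers of covered bases were those of MIR100HG (231574 bp), LINC-PINT (215364 bp), DLEU2 (123491 bp) and MIR99AHG (70627 bp, 12.6% of the record). No peak base lay in H19, MEG3, UCA1 or HOTTIP, and HOTAIR had 10.5%.

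Most genes on a list of the machinery that places the mark were well covered. Of 24 genes of DOT1L partners and elongation factors all had a peak base and 17 were covered over at least 50%. Their median share was 74.6%, beside 13.7% over all protein-coding records and 24.3% over those from 20 to 50 kb. The median length in the list was 40.5 kb. DOT1L, the enzyme, had 50.9% of its record covered. MLLT10 (AF10) had 95.0%, and AFF1 (84.1%) and CDC73 (93.0%), of the PAF1 complex, followed by covered bases. MLLT3, which encodes AF9, was far below the others with 0.694% of 280831 bp and no peak base in its first 1000 bp. Its close relative MLLT1, which encodes ENL, had 80.5%. The subunits of the H2B ubiquitin ligase, RNF20 and RNF40, had 34.9% and 43.9%.

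Of 20 genes known for very long records, none was covered over at least 50%, and all had a peak base. The median share was 0.650%. Of all records of 500 kb or longer 2.31% were covered over at least 50% and 3.30% had no peak base, with a median share of 0.300%. In cover of the record the list was thus near the level of long records in general. The 4 with the most covered bases were EXOC4 (40.3%), a subunit of the exocyst, ERC1 (47.9%), TBC1D5 (36.7%) and FTO (49.5%), an RNA demethylase. FHIT had 8.34%, and RBFOX1 and LRP1B had 0.0515% and 0.0539% of their records, the lowest of the 20. Of the 17 with a strand, 9 had a peak base in the first 1000 bp, a larger share than the 27.9% of oriented records of 500 kb or longer.

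The label of the cells was set against marker genes. Of 16 genes of basal mammary epithelium all had a peak base and 9 were covered over at least 50%, with a median of 61.0%, beside 28.2% of all protein-coding records covered to that extent and a median of 13.7%. EGFR, the receptor of epidermal growth factor, had 81.9% of its record covered, with a peak that reached 113369 bp from its start. The integrin gene ITGA6 had 79.5% and TP63 22.1%, and the keratin genes KRT5, KRT14 and KRT17 had 62.7%, 75.8% and 27.7%. Among 10 luminal genes 2 were covered over at least 50%, GATA3 (51.2%) and KRT18 (76.0%), whose record overlaps that of KRT8 (19.6%). The receptor genes PGR and PRLR and the genes ELF5 and KRT19 had no peak base, and ESR1 had 0.295%. The luminal counts, 2 of 10 covered over at least 50% and 4 of 10 with no peak base, lie near the 28.2% and 29.9% of all protein-coding records.

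Markers of other cell types had little or no cover, beside 29.9% of all protein-coding records with no peak base. None of 6 immune genes, among them PTPRC, CD3E, CD14, SPI1 and IKZF1, had a peak base. Of 7 fibroblast genes only DCN had any, over 5.46%, and COL1A1, COL1A2 and COL3A1 had none. Of 4 endothelial genes PECAM1 had 4.70% and TEK 0.842%, and CDH5 and KDR had none. Of 5 neuronal genes SYT1 had 0.522% and RBFOX3 0.131%, and SNAP25, GRIN1 and STMN2 had none.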

How the data were processed

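Reads of 4 libraries were aligned and peaks called with Bowtie2 2.3.1 and MACS2 2.1.1 on hg38, per the submitters' processing notes. Peaks were called per library, and their names carry a p threshold of 0.05 and, for H3K79me2 and H3K4me3, the word broad, per the file headers and names. Control library and duplicate removal were not given in the sources used here. Per peak, the authors deposited a fold enrichment, a ratio to background as estimated by the caller, and −log10 p and −log10 q values. Fold and q only describe peaks here, except in the alternative that keeps a q of 0.05 or below.

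Width was end minus start. Gene spans came from a RefSeq table of GRCh38, after leaving out 676 records on chromosomes 1 to 22 that are counted from scaffolds (153 protein-coding). Strand came from RefSeq promoters and was found for 15101 of 18973 protein-coding records (79.6%). Windows were consecutive, from the start of each chromosome. Overlap needed 1 bp. Computations used Python 3.11.15, numpy 2.4.6 and pandas 2.3.3, and the 7 measures were tested on simulated data, where they equalled a base-by-base count. With 1 library a mark, no test was run, and depth is unknown.

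The members and lists were chosen with earlier results of these data known. Genes named are the 10 longest peaks' genes, the 3 largest shares per length class, the 5 most covered and 5 longest bare records of 200 kb or longer, genes of the 8 most covered windows and of the 5 least covered with 10 or more midpoints, the 10 longest outside peaks and the 10 non-coding records they cover most, and for each list up to 4 members by covered bases and exceptions of 5 or fewer. Other list members, the gene families, the records with bare starts and the microRNAs were named after their values were seen. A few genes within this rule are left unreported. Alternatives were a q of 0.05 or below, peaks of at least 2000 bp, joining across 1000 bp, chromosome X, and other thresholds, windows and gene sets.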

Additional observations from a re-analysis of the deposited data

How the results depend on the processing

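Of 45 alternative values for 9 counts, 32 were within 1.5 times the count given and 13 were not. With peaks of a q of 0.05 or below, records with no peak base rose from 5669 to 9218, windows with none from 159 to 677, and windows of 250 kb or more fell from 328 to 78. In the same setting outside peaks numbered 1774, those over another gene record 897, and peaks touching H3K4me3 11162, which is 71.6% of the 15585 kept. With peaks of at least 2000 bp the same 6 counts were 9125, 781, 187, 1461, 1054 and 13597. At 75% of the record covered, 2839 genes were counted instead of 5351. Fewer peaks enter under the first 2 settings. Records with more cover on the start side numbered between 6404 and 8941 in all settings tried, and with a q of 0.05 or below 6822 stood against 1162 with more on the end side. Joining peaks, adding X and moving the windows left every count they apply to within 1.5 times. X adds only 3626 peaks to 109105 and 848 protein-coding records to 18973. Adding it thus had little room to move a count, and the values with X are among the 32. Peak lists without depth cannot show whether a bare record lacks the mark or lies under the caller's threshold. No paired analysis was possible because each mark has 1 library.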

Other observations

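Chromosome X, left out above, had 3626 H3K79me2 peaks with a median width of 605.5 bp. Of its 848 protein-coding records 109 (12.9%) were covered over at least 50% and 48.2% had no peak base, beside 28.2% and 29.9% on chromosomes 1 to 22. The pooled share of protein-coding bases covered was 11.8%, below the range of 20.6% to 28.6% over the 22 chromosomes. The median 1 Mb window of X had 20.3 kb covered, which lies within the range of the chromosome medians, and 1 of its 156 windows had at least 250 kb.

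Taste receptor records (TAS2R), which are short and clustered, had no peak base in 17 of 24 (70.8%) and at least 50% cover in 6 (25%), close to the 64.9% and 25.9% of all records under 5 kb. They were chosen for mention after their values were seen.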
